A study of Mus musculus with 6 samples.

Results

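Interferon-stimulated genes are the genes that a cell switches on when interferon, a secreted warning signal of infection, binds its receptor. The 36 genes followed here were listed by name, without antigen presentation genes and without sensors of double-stranded RNA other than the OAS family. Of the 36 genes, 33 had a probe, among 20659 named genes on the array, and they were read from 40 of its 39429 probes. Mx1, Mx2 and Oas1b had no probe assigned and were not analysed here. Each of the 40 probes exceeded background clearly on every array of si-NC, of si-SYISL or of both, so no gene was lost to the filter on dim probes.

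RNA came from C2C12, an established line of mouse myoblasts whose cells fuse and become muscle fibres in low serum. Cells grown in 10% fetal bovine serum received either a control siRNA (si-NC) or an siRNA (si-SYISL) that targets SYISL, a long non-coding RNA. Both groups then spent 2 days in medium with 2% horse serum, and each was deposited as 3 single-colour Agilent arrays. The labels name no cell clone, siRNA sequence or untransfected group, and do not say whether replicates were separate cultures. No probe was assigned to SYISL here, so its knockdown was not checked.

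Type I interferon acts through the kinases JAK1 and TYK2, and the signal reaches a complex with STAT2 and IRF9 that binds a promoter element, the interferon-stimulated response element (ISRE). Interferon gamma acts at another element (GAS). The induced proteins block viral entry, translation and replication, and some of them, such as USP18 and SOCS1, switch the signal off again.

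The ISRE was searched as GAAA, any 2 bases and GAAA again, on both strands, in RefSeq promoters of assembly GRCm38.p6, each running from 250 bases before to 50 bases after an annotated start. Of the 27 listed genes with a promoter in that table, 14 held a match (51.9%), against 3.44% of all 32851 promoters and 3.99% of all 27025 genes. Isg15 held 3 matches, and 6 other genes held 2, of which the 3 with the smallest p-values are shown with it. The sequences run 5′ to 3′ on the gene's own strand and show where the element lies. Capitals mark ISRE matches, which overlap each other in Isg15, Gbp3 and Bst2.
Isg15, chr4:156200769-156201068, minus strand: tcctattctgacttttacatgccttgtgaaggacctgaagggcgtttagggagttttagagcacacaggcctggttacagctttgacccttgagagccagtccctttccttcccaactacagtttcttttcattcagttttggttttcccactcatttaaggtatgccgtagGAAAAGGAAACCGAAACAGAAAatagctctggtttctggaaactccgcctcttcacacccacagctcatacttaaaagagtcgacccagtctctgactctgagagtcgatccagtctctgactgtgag
Gbp3, chr3:142559794-142560093, plus strand: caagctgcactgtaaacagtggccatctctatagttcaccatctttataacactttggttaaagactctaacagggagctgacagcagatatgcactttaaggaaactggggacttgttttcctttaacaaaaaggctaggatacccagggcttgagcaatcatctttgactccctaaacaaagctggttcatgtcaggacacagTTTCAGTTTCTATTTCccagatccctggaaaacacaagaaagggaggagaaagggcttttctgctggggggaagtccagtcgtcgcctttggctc
Bst2, chr8:71537423-71537722, minus strand: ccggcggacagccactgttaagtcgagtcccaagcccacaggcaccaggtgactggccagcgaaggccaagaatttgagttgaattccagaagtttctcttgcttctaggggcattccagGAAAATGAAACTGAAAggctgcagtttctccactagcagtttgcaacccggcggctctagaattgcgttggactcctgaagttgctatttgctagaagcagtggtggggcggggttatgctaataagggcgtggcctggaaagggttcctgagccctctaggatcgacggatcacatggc
Ifit1, chr19:34640639-34640938, plus strand: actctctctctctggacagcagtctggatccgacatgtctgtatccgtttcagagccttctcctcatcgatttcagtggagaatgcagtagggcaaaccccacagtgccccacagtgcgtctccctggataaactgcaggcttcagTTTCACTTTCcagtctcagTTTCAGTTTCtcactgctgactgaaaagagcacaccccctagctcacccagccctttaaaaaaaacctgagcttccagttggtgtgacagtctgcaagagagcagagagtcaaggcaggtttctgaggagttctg
In Isg15 the matches begin 78 bases before the start, in Gbp3 45, in Bst2 130, and in Ifit1 104 and 85. The other genes with a match were Cxcl10, Gbp2, Gbp5, Gbp7, Ifit3, Oas1a, Oas3, Rsad2, Socs1 and Stat2. The GAS element, searched as TTCNNNGAA, was present in 8 of the 27 genes (29.6%), against 8.3% of all promoters and 9.55% of all genes. A match describes letters in this window and does not show that a factor binds there.

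**Figure D1:**
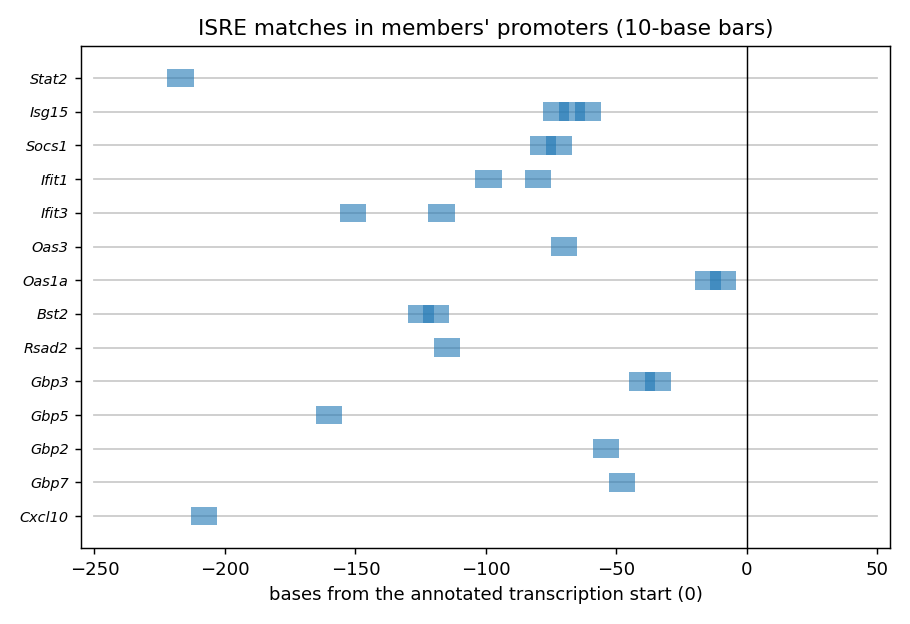
Positions of ISRE matches (bars of 10 bases) in the promoters of the 14 listed genes that hold one, in bases from the annotated start at 0; grey lines span the window searched. All matches lie before the start, Stat2 holding the farthest match and Oas1a the nearest, and darker stretches are overlapping matches.

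Of all spots, 78.2% to 84.6% were clearly above background on the si-NC arrays and 87.9% to 90.6% on the si-SYISL arrays, and 0 were saturated. Within each group, replicates 1 and 3 were closer to each other than repeated spots of a probe are on average: chi-square per probe was 0.214 to 0.252 for these 2 pairs, whereas the remaining 13 pairs gave 24.7 to 164. Both arrays of such a pair came from the same slide position in 2 scans, and the deviations of their spots from the probe mean correlated at 0.788 to 0.862, against 0.260 to 0.426 in other pairs. Each pair was averaged and counted as 1 sample, leaving 2 samples a group. The p-values and SE reflect the spread between those samples, moderated by limma with the spread over all features. That spread may be technical. The median log2 difference of all 28559 features was 0.16 in the direction of si-SYISL. Log2 differences of genes are therefore si-SYISL minus si-NC after subtraction of that median, ± the moderated SE with n = 2 samples a group. Adjusted p-values are from limma over all features and test the difference before subtraction. Signals are intensities scaled so that the 75th percentile is equal on every array. They are given in the order si-NC replicates 1 and 3, si-NC replicate 2, si-SYISL replicates 1 and 3, si-SYISL replicate 2.

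Signals of most interferon-stimulated genes lay higher in the si-SYISL samples, and the displacement was greatest in 1 of the 2 samples. Of the 33 genes measured, 25 differed by more than the median of all features and 8 by less, with a median log2 difference of 0.34. Over the 32 genes well above background on all 6 arrays the range was -0.82 (Rsad2) to 1.34 (Cxcl10), and Ifi44, above background on 1 of 3 si-NC arrays, has no exact difference. The groups did not overlap, with si-SYISL higher, for 24 of 33 genes, against 46.3% of all features. They did not overlap with si-SYISL lower for 1 gene, Rsad2, against 15.8% of all features. Without Ifi44, kept through its si-SYISL arrays alone, the counts were 23 and 1 of 32 genes. The shares of features above background on all 6 arrays were 43.7% and 17.7%. With each array scaled to its median instead, the counts over the 33 genes were 18 and 2, against 27.7% and 25% of all features. At an adjusted p of 0.05, 0 of the 33 genes passed, as did 0 of 28559 features (0%). Adjusted p ran from 0.116 to 0.971 over the 33 genes. At an unadjusted p of 0.05, 18 of the 33 genes, Ifi44 among them, were higher, against 16.8% of all features, and 1 was lower, against 5.85%. The genes were listed with earlier results of these arrays known, so these counts are a description. In bulk RNA, more cells that express a gene and more RNA per cell cannot be told apart.

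**Figure D2:**
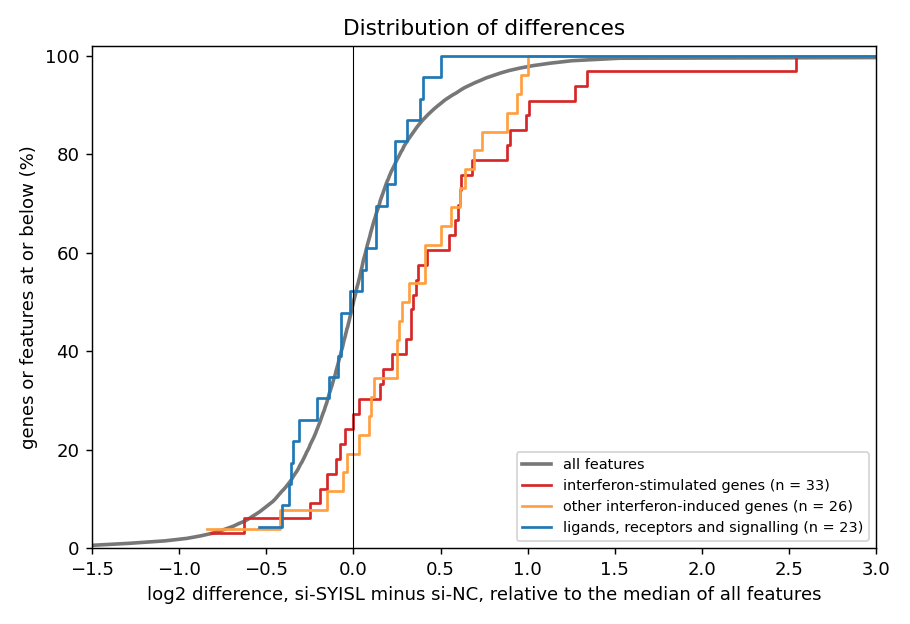
Cumulative share of genes (vertical axis, %) by log2 difference between si-SYISL and si-NC relative to the median of all features (horizontal axis), for 33 interferon-stimulated genes, 26 other interferon-induced genes, 23 genes of ligands, receptors and signalling, and all 28559 features. The curves of both induced lists lie to the right of all features over most of the range, with medians of 0.34 and 0.30, while that of ligands, receptors and signalling has its median at -0.02.

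The 2 si-SYISL samples did not carry the displacement equally. Against the mean of the si-NC samples, and relative to all features, the median of the 33 genes was 0.51 (log2) in the sample of replicates 1 and 3 and 0.17 in replicate 2. In the former sample 29 genes lay above 0 and 7 exceeded 1. In replicate 2, 21 genes lay above 0 and 1, Ifi44, exceeded 1. The highest of the 4 signals was in the sample of replicates 1 and 3 for 27 of 33 genes, where 25.8% of all features had theirs. Within the si-SYISL group 32 of 33 genes were higher in that sample than in replicate 2 after subtraction of each sample's median, against 48.2% of all features. The gap exceeded 0.5 for 15 of the 33 genes and for 2.97% of all features.

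**Figure D3:**
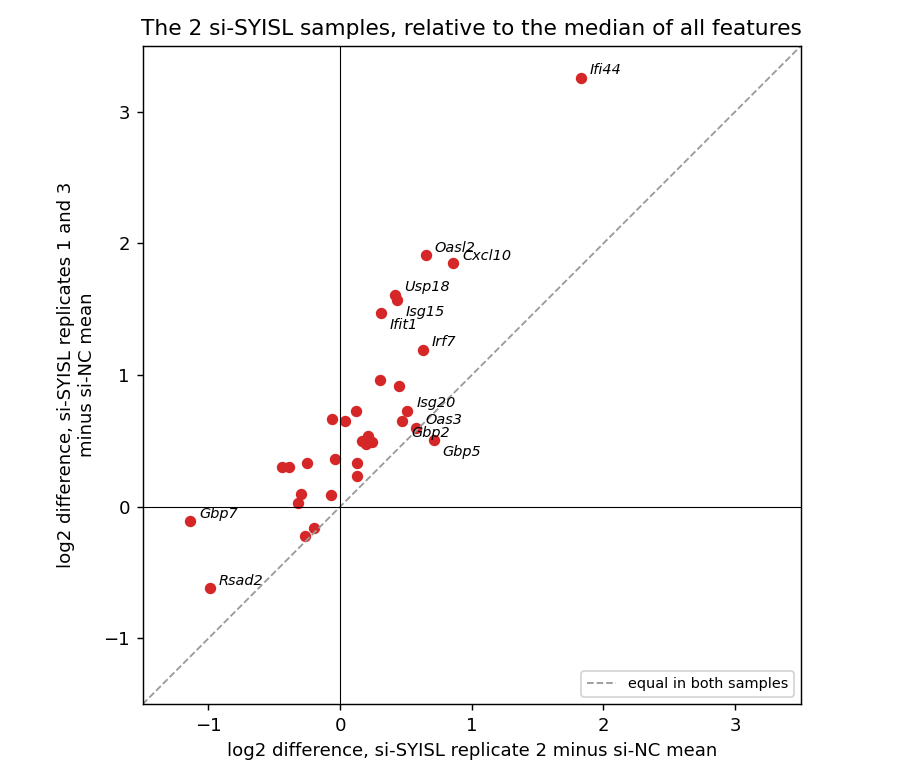
Log2 difference from the si-NC mean of 33 interferon-stimulated genes in si-SYISL replicates 1 and 3 (vertical axis) and in si-SYISL replicate 2 (horizontal axis), each relative to the median of all features. All points but Gbp5 lie above the dashed line of equality. Ifi44, whose si-NC signal was above background on 1 of 3 arrays, is the point at 3.26 and 1.83.

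The 4 transcription factors did not share a direction. The signal of Irf7, which amplifies type I interferon production, was 46.7, 56.9, 128 and 91.2 in the order given. Both si-SYISL samples were high and the groups did not overlap (0.90 ± 0.22, adjusted p = 0.13). Irf9, the DNA-binding partner of STAT2, had signals of 2789, 2999.7, 6084 and 4064 (0.62 ± 0.23, adjusted p = 0.171). Its si-SYISL samples also lay above the si-NC samples, replicates 1 and 3 furthest. Stat2, which supplies the activating domain of the complex, had signals of 14694, 16026, 17865 and 14299 (-0.10 ± 0.16). The si-SYISL samples enclosed the si-NC samples. Irf1, a factor of the interferon gamma response, had signals of 8308, 9445, 8611 and 8807 (-0.19 ± 0.12), and its groups overlapped. A second Irf1 probe, for another transcript accession, gave 0.18. Socs1, which inhibits JAK kinases, had signals of 1061, 1218, 1059 and 1081 (-0.25 ± 0.13), so the highest was si-NC replicate 2.

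ISG15 is a ubiquitin-like protein that is attached to other proteins by an enzyme chain and removed by USP18, which also blocks the type I receptor. Isg15 had signals of 595, 712, 2097 and 1001 (0.99 ± 0.39, adjusted p = 0.198). Its second probe differed by 1.34. Usp18 had signals of 66.6, 80.6, 243 and 112 (1.01 ± 0.40, adjusted p = 0.202). For both genes the sample of si-SYISL replicates 1 and 3 was far above the other 3 samples, with log2 differences of 1.57 and 1.61 there and of 0.43 and 0.42 in si-SYISL replicate 2. Herc6, a ligase of ISG15, had signals of 352, 362, 394 and 328 (-0.15 ± 0.14), and the groups overlapped. Trim25, a ubiquitin and ISG15 ligase that activates RIG-I, had signals of 5019, 4933, 5731 and 5438 (0.00 ± 0.11), so its small excess in si-SYISL equalled that of all features. Outside the 36 genes, the activating enzyme gene of this chain, Uba7, had signals of 1854, 1826, 4313 and 3697 (0.96 ± 0.13, adjusted p = 0.0938). The conjugating enzyme gene Ube2l6 went the other way, with 4623, 6153, 3459 and 3227 (-0.84 ± 0.18, adjusted p = 0.159).

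The IFIT proteins bind foreign RNA ends and block its translation. Ifit1 had signals of 555, 1039, 2279 and 1077 (0.88 ± 0.49, adjusted p = 0.274). Here si-SYISL replicate 2 stood almost level with si-NC replicate 2, and the sample of replicates 1 and 3 was high. Ifit3 had signals of 12283, 12937, 21715 and 13822 (0.30 ± 0.25), and Ifit2 of 2558, 2361, 3408 and 2739 (0.15 ± 0.16). In all 3 genes both si-SYISL samples exceeded both si-NC samples, but without si-SYISL replicates 1 and 3 the differences of Ifit3 and Ifit2 turned to -0.06 and -0.04. The array files hold no probe sequences, so signal from near-identical copies of these genes, or of the Oas1 and Gbp genes, cannot be separated.

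Several OAS proteins, activated by double-stranded RNA, make the messenger that activates RNase L. Oasl2 had signals of 596, 732, 2684 and 1184 (1.27 ± 0.43, adjusted p = 0.175). Oasl1, which restrains translation of Irf7, had signals of 40.9, 55.4, 81.2 and 56.1 (0.34 ± 0.26, adjusted p = 0.296). Both had their highest signal in si-SYISL replicates 1 and 3, and in Oasl1 replicate 2 was almost level with si-NC replicate 2. Oas3 had another pattern, with signals of 76.6, 90.9, 137 and 143 (0.58 ± 0.14, adjusted p = 0.123), and so did Oas2, with 72.7, 78.0, 95.4 and 94.3 (0.17 ± 0.11, adjusted p = 0.199). The si-SYISL samples of Oas3 and Oas2 were near each other and above the si-NC samples. Oas1a had signals of 75.1, 87.8, 108 and 70.8 (-0.05 ± 0.25), with overlapping groups. Its sign depended on the sample and probe, being 0.30 without si-SYISL replicate 2 and 0.04 at its other probe.

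Genes of direct virus restriction did not share a direction. Isg20, an exonuclease that degrades viral RNA, had signals of 6091, 6676, 11444 and 10356 (0.61 ± 0.12), with the smallest adjusted p of the 33 genes, 0.116, and 0.53 at its second probe. Samd9l, which inhibits translation, had signals of 3589, 3519, 5389 and 4662 (0.33 ± 0.13, adjusted p = 0.157), and its second probe gave 0.21. In both genes the groups stood apart by more than the distance within either. Bst2, which tethers budding virions to the cell, had signals of 930, 703, 1454 and 1002 (0.42 ± 0.25, adjusted p = 0.256), with si-SYISL replicate 2 just above the si-NC samples. Rsad2, which encodes viperin had signals of 253, 267, 183 and 150 (-0.82 ± 0.15, adjusted p = 0.141). Both si-SYISL samples were low, at -0.62 in replicates 1 and 3 and -0.99 in replicate 2. Like most of the 33 genes, Rsad2 is read from 1 probe. Outside the 36 genes, Cmpk2, a nucleotide kinase of mitochondria, was clearly above background on all 3 si-SYISL arrays and on 0 of 3 si-NC arrays. Of all 28559 features, 1004 were above background on 0 si-NC arrays and 14 on 0 si-SYISL arrays. The excess of Cmpk2 in si-SYISL was at least 1.34-fold, against the detection limit of the si-NC arrays. Unlike the log2 differences, this bound is before subtraction of the median of all features. Cmpk2 and Ube2l6 were named after their values were seen.

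Guanylate binding proteins are GTPases that attack the membranes of intracellular pathogens and respond to interferon gamma above all. Gbp2 had signals of 2658, 2403, 4311 and 3993 (0.55 ± 0.12, adjusted p = 0.121), Gbp3 of 565, 716, 1306 and 991 (0.68 ± 0.21, adjusted p = 0.151). Gbp5 had signals of 296, 213, 388 and 470 (0.60 ± 0.21, adjusted p = 0.164). All 3 stood above the si-NC samples in both si-SYISL samples, and Gbp5 was the 1 gene of the 33 whose value was lower in replicates 1 and 3 than in replicate 2 (0.51 and 0.71). Gbp7 had signals of 43.4, 59.3, 51.0 and 26.3 (-0.63 ± 0.37, adjusted p = 0.45), low in si-SYISL replicate 2 and within the si-NC range in replicates 1 and 3.

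Of the other induced genes, Ifi44, a cytosolic protein of the antiviral response, had signals of 10.6, 18.5, 146 and 57.0. It was well above background on all 3 si-SYISL arrays but on 1 of 3 si-NC arrays (replicate 2). Its fitted difference of 2.54 thus rests on a si-NC sample near the detection limit. The difference was 1.02 with normexp background correction, which here added an offset of 50 to each signal. Cxcl10, a chemokine that attracts T cells, had signals of 41.0, 95.8, 244 and 130 (1.34 ± 0.53, adjusted p = 0.207). The si-NC samples of both genes also differed from each other, replicate 2 being the higher. Ifi27, a small membrane protein, had signals of 48158, 47524, 72824 and 64428 (0.36 ± 0.12, adjusted p = 0.145). Rtp4, a chaperone of membrane receptors, had 3457, 3496, 5341 and 4480.1 (0.33 ± 0.14, adjusted p = 0.164). In both the si-NC samples were nearly equal and lay below the si-SYISL samples. The ADP-ribosyltransferase genes Parp14 and Parp9 behaved alike, with signals of 1646, 1619, 2572 and 2158 (0.37 ± 0.14) and of 4247, 4291, 5818 and 5351 (0.22 ± 0.11). Xaf1, a pro-apoptotic gene, had signals of 2199.6, 2307, 2999 and 1903 (-0.08 ± 0.25), the highest and the lowest both being si-SYISL samples. Ifi35, which takes part in innate signalling with NMI, had 655, 549, 814 and 576 (0.03 ± 0.22), and its groups overlapped.

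**Figure D4:**
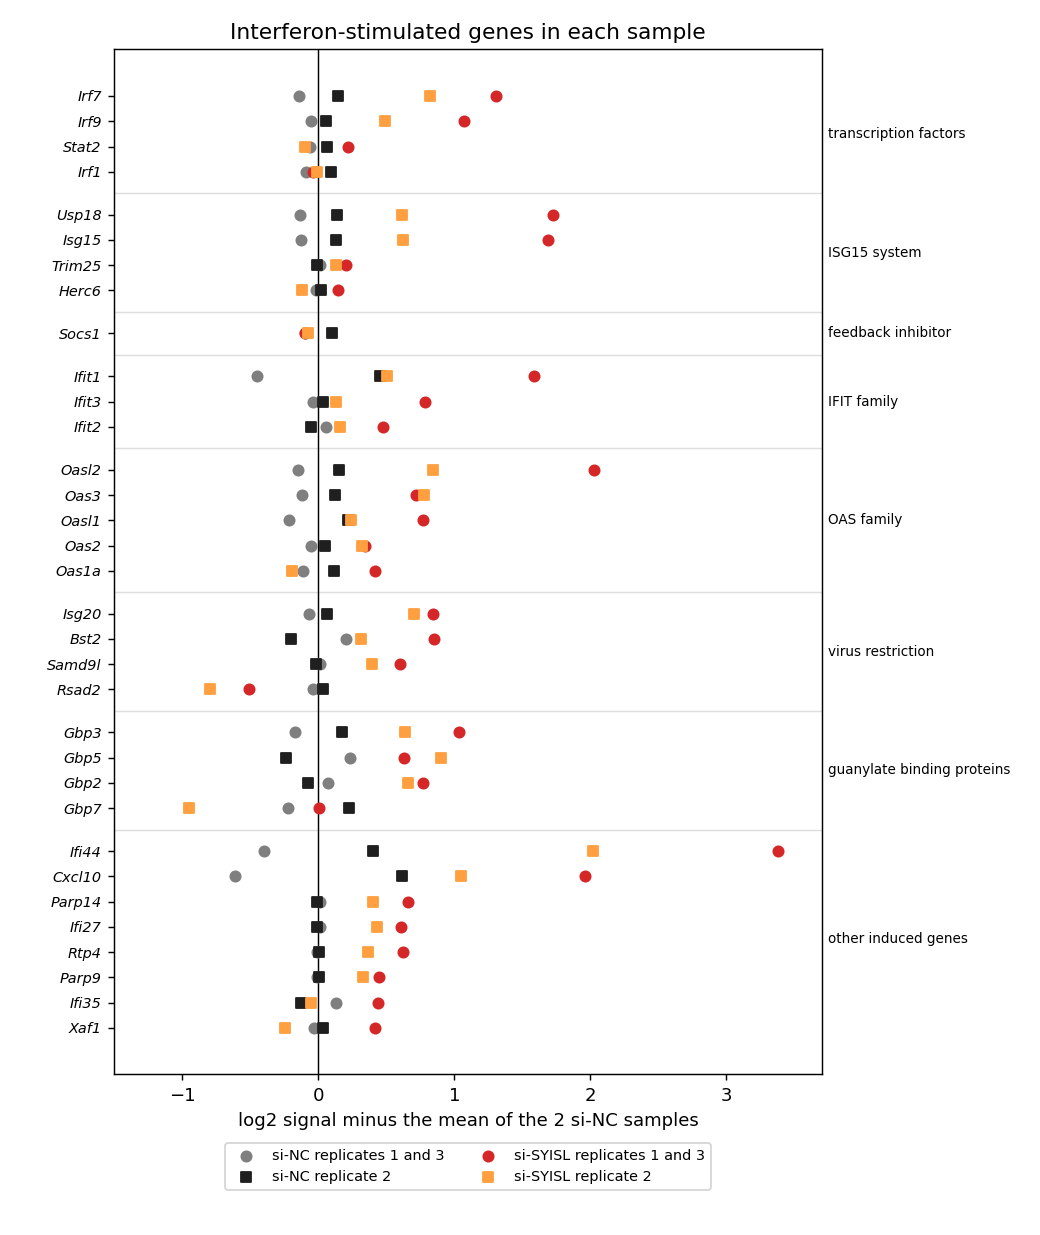
Log2 signal of each of 33 interferon-stimulated genes in the 4 samples minus the mean of the 2 si-NC samples (horizontal axis, before subtraction of the median of all features), grouped by role. Circles are the means of replicates 1 and 3 and squares are replicate 2, in grey and black for si-NC and red and orange for si-SYISL. The red circle is the rightmost point for 27 genes, and Rsad2 has both si-SYISL points on the left.

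The gap between the si-SYISL samples differed among the genes. It was over 1 for Ifi44, Oasl2, Usp18, Ifit1, Isg15 and Gbp7, and 0.99 for Cxcl10. It was within 0.25 for 9 genes, among them Oas3, Gbp2, Gbp5, Isg20, Parp9 and Oas2, whose si-SYISL samples nevertheless both lay above the si-NC samples. These genes were singled out after their values were seen. ISRE matches occurred in both, and the median log2 difference was 0.48 over the 14 genes with a match and 0.33 over the 13 without. For GAS it was 0.09 over the 8 genes with a match and 0.55 over the 19 without. Oasl2, Irf7 and Ifi44 held no match in this window, and Rsad2, Gbp7 and Socs1 held at least 1.

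The pathway upstream of these genes was read from 27 ligand, receptor and signalling genes, of which 23 were measured. Their median log2 difference was -0.02, and limma called 0 higher and 0 lower, with 3 higher and 0 lower at an unadjusted p of 0.05. The unadjusted shares of all features were 16.8% higher and 5.85% lower. The groups did not overlap with si-SYISL higher for 11 of the 23 (47.8%) and with si-SYISL lower for 4, near the shares of all features (46.3% and 15.8%). The receptor chains of type I interferon had signals of 2546, 2573, 2133 and 2180.5 for Ifnar1 (-0.41 ± 0.11, adjusted p = 0.255) and of 8251, 8389.6, 7937 and 8196 for Ifnar2 (-0.21 ± 0.11). Both had lower signals in the si-SYISL samples, and the other Ifnar1 probes gave -0.65 and -1.02. Jak2, a kinase of the gamma receptor, had signals of 8445, 8627, 12739 and 12436 (0.40 ± 0.11, adjusted p = 0.126). Socs3, an inhibitor of cytokine receptors, had signals of 10278, 10489, 13016 and 14399.8 (0.24 ± 0.12, adjusted p = 0.173). The probe of Ifnb1, interferon beta, was well above background on 0 of 3 si-NC and 1 of 3 si-SYISL arrays and was not tested.

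A second list of 32 interferon-induced genes, with 26 measured, had a median log2 difference of 0.30, and limma called 0 at an adjusted p of 0.05. At an unadjusted p of 0.05, 14 were higher, against 16.8% of all features, and 1, Ube2l6, was lower, against 5.85%. The groups did not overlap with si-SYISL higher for 22 of the 26 (84.6%, against 46.3% of all features) and with si-SYISL lower for 2 (15.8% of all features), and the list medians in the si-SYISL samples were 0.47 (replicates 1 and 3) and 0.14 (replicate 2). The 14 and the 22 both include Cmpk2, which was kept through its si-SYISL arrays alone. Lgals3bp, a secreted glycoprotein, had signals of 13832, 15214, 37594 and 28007 (1.00 ± 0.18, adjusted p = 0.115). Ifitm1, which blocks viral fusion, had signals of 1283, 1489, 3290.5 and 2692 (0.94 ± 0.16, adjusted p = 0.108). Their si-SYISL samples were both high, with replicates 1 and 3 above replicate 2.

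Several other measures were read beside these values. By brightness, the median log2 difference of all features was 0.20 in the dimmest of 4 equal classes, which held 4 of the 33 genes (median 0.62). These were Irf7 (0.90), Oasl1 (0.34), Gbp7 (-0.63) and Ifi44 (2.54), the last with a si-NC sample near the detection limit. In the brighter classes the median of all features was -0.09 to 0.01, and the genes there had medians of 0.31 to 0.42. Muscle markers, all 12 measured, had a median of 0.59, and in the si-SYISL samples their medians were 0.60 and 0.49, in the order replicates 1 and 3, replicate 2. Troponin T gene Tnnt3 had signals of 4993, 3996, 12619.5 and 11060.5 (1.24 ± 0.16, adjusted p = 0.094), and the groups of Actc1 (0.85 ± 0.14) and Myh3 (0.62 ± 0.12) likewise did not overlap. In the whole list the groups did not overlap with si-SYISL higher for 8 of 12, against 46.3% of all features. They did not overlap with si-SYISL lower for 1, Myod1, a factor of myoblast commitment (-0.78 ± 0.13), against 15.8% of all features. Myf5 (-0.29), Des (-0.07) and Myog (-0.02) had overlapping groups. The immune cell markers, 11 of 12 measured, had a median of -0.07, with median centred levels of -0.01 to 0.05 in si-NC and -0.11 to 0.03 in si-SYISL. Lyz2, a lysozyme of myeloid cells, had signals of 26.4, 35.6, 56.5 and 43.3 and was above background on 1 of 3 si-NC arrays. Itgam, an integrin of myeloid cells, had signals of 2784, 2813, 6500.1 and 3703 (0.65 ± 0.29, adjusted p = 0.215) and 0.17 and 0.02 at its other probes, while Ptprc, which marks white blood cells, had 91.5, 68.8, 92.1 and 112 (0.19 ± 0.20). Itgam and Lyz2 thus had their highest signal in the same sample as Isg15, and Ptprc did not. Among the immune cell markers the groups did not overlap with si-SYISL higher for 3, against 46.3% of all features. These were 30% of the markers with a value in every sample. The groups did not overlap with si-SYISL lower for 0, against 15.8% of all features. The part of these measures in the interferon-stimulated genes was not tested.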

How the data were processed

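Total RNA of 6 samples was labelled with Cy3 and hybridised to Agilent mouse arrays. The deposited spot intensities are processed signals, background-subtracted by the authors' scanner software, Agilent Feature Extraction, version 11.0.1.1 per the file headers and 10.5.1.1 per the submitters' processing notes. The deposited value table holds the authors' normalised log2 values and was used as an alternative only. Outlier spots and control spots were left out, log2 intensity was centred on the 75th percentile of each array, and spots of a probe were averaged. Probes well above background on all 3 arrays of a group were kept, and a gene was read from its kept probe with the highest mean. Replicates 1 and 3 of a group were averaged as 1 sample. Groups were compared with limma 3.58.1 in R 4.3.3 (lmFit and eBayes), with Benjamini-Hochberg adjustment over all 28559 features, after a check on simulated data. The number of samples, 2 a group, limits the precision. The 36 genes and the comparison lists were chosen with earlier results of these data known. All measured listed genes are named; from each other list, the 3 genes with the smallest p-values and Ifnb1, Ifnar1 and Ifnar2 are, except 1 gene that is not reported here. Promoters were matched by gene symbol. Alternatives covered background correction, normalisation, filters, probe choice, variance trend, sample counting, blocks and left-out samples.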

Additional observations from a re-analysis of the deposited data

How the results depend on the processing

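The median log2 difference of the 33 interferon-stimulated genes was between 0.33 and 0.47 under other background corrections, normalisations, filters, probe rules and blocks. Single genes moved more. With normexp and its offset of 50, Irf7 was 0.47, Oas3 0.35, Oasl1 0.15 and Gbp7 -0.24. Such an offset shrinks log2 differences most at low signals. With quantile normalisation Parp9 was 0.36, Socs1 -0.14 and Oasl1 0.19. The median was 0.17 without si-SYISL replicates 1 and 3 and 0.51 without si-SYISL replicate 2. Modelling a variance trend, limma called 3 of the 33 genes (Ifi27, Isg20 and Gbp2), 1 of the signalling genes and 4 of the other interferon-induced genes, against 3.17% of all features; the cause was not tested. Counting the 6 arrays as 6 samples gave 23, 7 and 18, against 34.2% of all features. This setting treats replicates 1 and 3 of a group, closer than repeated spots, as separate samples. With normexp background correction, run on median pixel signals, 2 of the other interferon-induced genes were called, against 0.620% of all features, and the cause was not tested. Over left-out samples, calls ran from 0 to 1 among signalling genes and from 0 to 1 among other interferon-induced genes, the 1 in each list appearing without si-NC replicates 1 and 3, where 4.84% of all features were called. The samples share only replicate numbers across groups (r = -0.03 between deviations of same-numbered samples), and with a replicate block 0 of the 33 genes were called, with a median of 0.34. Oas1a was 0.09 with normexp and 0.11 with 6 samples, and Xaf1 was 0.06 with quantile normalisation, the authors' value table and 6 samples. Over left-out samples Oas1a ran from -0.39 to 0.30, Xaf1 from -0.44 to 0.30, Ifi35 from -0.25 to 0.33, Ifit3 from -0.06 to 0.67, Ifit2 from -0.04 to 0.36, Stat2 from -0.30 to 0.10 and Herc6 from -0.32 to 0.03.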
